A study of Mus musculus with 4 samples.

Results

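The 8 genes described here encode the RNase H enzymes, the XRN exonucleases and proteins that bind antisense oligonucleotides or their cleavage products. They are Rnaseh1, Rnaseh2a, Rnaseh2b, Rnaseh2c, Xrn1, Xrn2, Ssb and Anxa2, and they were chosen by name with earlier results of these data known. All 8 were found by symbol among 55536 genes in all 4 libraries. Each symbol stood on 1 gene ID.

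RNase H enzymes cut the RNA strand of an RNA-DNA hybrid. RNase H1 acts as a single protein, and gapmers, antisense oligonucleotides with a central stretch of DNA, rely on it to cut their target RNA. RNase H2 is a complex of a catalytic subunit (Rnaseh2a) and accessory subunits (Rnaseh2b and Rnaseh2c) that also removes ribonucleotides from DNA. In humans, mutations in its subunits cause Aicardi-Goutières syndrome, a disorder with high interferon signalling. XRN1 and XRN2 degrade RNA from the 5′ end, XRN1 mainly in the cytoplasm and XRN2 in the nucleus, where it also acts in transcription termination and trims the 5′ ends of ribosomal RNA and of many small nucleolar RNAs. La, the product of Ssb, binds the uridine-rich 3′ ends of new RNA polymerase III transcripts. Annexin A2 is a calcium-dependent membrane-binding protein that partners with S100a10, and in human cells La and annexin A2 are known to bind phosphorothioate antisense oligonucleotides.

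The study used primary ear fibroblasts of C57BL/6 mice, cultured with 10% fetal calf serum, in 2 states labelled AF357425-High and AF357425-Low (High and Low below) after a C/D box small nucleolar RNA of the imprinted Dlk1-Dio3 locus. For each state there was 1 library of RNA pulled down with a fibrillarin antibody and 1 library of whole-cell RNA. By the protocol, which covers all 4 libraries, cells first spent 48 h in KN93, a blocker of calmodulin-dependent kinase II, to bring the cell cycles into step. Transfection then lasted 24 h. The labels give the treatment as overexpression for AF357425-High and inhibition for AF357425-Low, but their protocol names gapmers against AF357425 or a scrambled control. By that protocol an oligonucleotide was present in both states, but the sources used here do not say which transfection stands behind each state, nor whether the libraries share a culture or a mouse.

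With 1 library in each group, no difference below has a replicate check and none has a p-value. Each 95% interval covers counting error only. It can be too narrow even for that, because reads from PCR without molecular identifiers are not independent molecules. Levels are counts per 1000000 gene-assigned reads (CPM), and they are compared between libraries for the same gene, not between genes, because exon lengths were not used here. Ratios between the states are log2 ratios, High to Low, after scaling by the trimmed mean of M values (TMM). A gene counts as past 2-fold where its whole interval lies beyond 2-fold. In bulk RNA, fewer cells expressing a gene and less RNA per cell cannot be told apart.

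The libraries held between 21693030 and 27832061 gene-assigned reads, so that 3 reads correspond to between 0.108 and 0.138 CPM. Ribosomal RNA of the mitochondria filled 63.4% of the High pulldown and 59.8% of the Low pulldown, against 0.0926% and 0.0583% in whole-cell RNA. Fragments that overlapped more than 1 gene were 9.38% and 8.54% of the total in the High and Low pulldowns and 1.05% and 1.09% in whole-cell RNA. All 10 fibroblast markers had reads in every library, and 8 of them reached 1 CPM in each whole-cell library and all 10 in each pulldown. They summed to 10050 and 11560 CPM in High and Low whole-cell RNA, and to 3042 and 3605 CPM in the High and Low pulldowns. The marker lists of keratinocytes, endothelium, leukocytes, and melanocytes with Schwann cells each summed to at most 3.35 CPM, and Krt14, Krt1, Adgre1 and Cd3e had 0 reads in all 4 libraries. The 4 chondrocyte markers, which all had reads in every library, summed to 110.8 and 136.4 CPM in the High and Low pulldowns, and to 262.2 CPM in High and 185.4 CPM in Low whole-cell RNA. Their part in the results below was not tested.

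By TMM, Xrn1, Xrn2 and Anxa2 had state ratios below 0 in both kinds of RNA, and Ssb had ratios above 0, all with intervals off 0. Rnaseh1 and Rnaseh2b were also below 0 and Rnaseh2a above 0 in both, each with at least 1 interval that included 0. With library totals the pulldown ratio of Ssb was 0.02 (-0.05 to 0.10). Whether promoters bear on these ratios was not tested. The promoters of Xrn1, Xrn2 and Ssb are shown here. Each runs 5′ to 3′ on the strand of the gene (GRCm38.p6), 250 bases before to 50 bases after the start set for the promoter. That start need not be the outer end of the annotated span of the gene. The Xrn2 window lies almost wholly within the span of its gene, which begins at 147012755. Capitals mark matches to the motifs named next.
Xrn1 (chr9:95954510-95954809, plus strand): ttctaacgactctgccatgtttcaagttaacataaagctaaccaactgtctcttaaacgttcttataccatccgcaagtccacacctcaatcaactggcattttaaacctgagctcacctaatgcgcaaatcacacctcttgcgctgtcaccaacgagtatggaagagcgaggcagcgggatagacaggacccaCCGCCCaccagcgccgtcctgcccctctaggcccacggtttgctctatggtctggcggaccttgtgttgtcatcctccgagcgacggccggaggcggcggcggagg
Xrn2 (chr2:147012749-147013048, plus strand): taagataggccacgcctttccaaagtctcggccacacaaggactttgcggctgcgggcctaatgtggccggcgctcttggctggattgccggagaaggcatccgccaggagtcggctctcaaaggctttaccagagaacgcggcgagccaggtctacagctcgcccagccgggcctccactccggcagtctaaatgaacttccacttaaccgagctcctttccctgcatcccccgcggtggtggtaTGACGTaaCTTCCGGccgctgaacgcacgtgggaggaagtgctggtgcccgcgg
Ssb (chr2:69861312-69861611, plus strand): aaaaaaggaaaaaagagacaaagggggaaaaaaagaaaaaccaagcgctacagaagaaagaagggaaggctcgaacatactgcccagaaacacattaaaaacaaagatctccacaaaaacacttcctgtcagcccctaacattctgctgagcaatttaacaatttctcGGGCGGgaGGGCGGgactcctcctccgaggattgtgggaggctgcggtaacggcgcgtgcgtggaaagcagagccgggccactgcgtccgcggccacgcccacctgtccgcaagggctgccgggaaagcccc

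Motifs were searched on both strands in the 6 members that the table holds and in all 32851 promoters of the same length. The Rnaseh2a window (84966027 to 84966326) lies within the annotated span of its gene (84956610 to 84969598). The GC box (GGGCGG), a site bound by Sp family factors, was in 35.7% of all promoters. Xrn1 had 1 match, on the reverse strand, while Ssb had 2, Rnaseh2a 2 and Anxa2 3. Xrn2 had no GC box but an ETS site (CCGGAAG, in 8.86% of all promoters) and, 2 bases before it, the core of the cyclic AMP response element (TGACGT, in 7.51%). The TATA box (TATAAA, in 13.6%) was found in Anxa2 and the CCAAT box (CCAAT, in 37.4%) in Rnaseh2a. Neither the interferon-stimulated response element (GAAANNGAA, in 8.56%) nor the E2F site (TTTNGCGC, in 1.38%) had a match in any of the 6 windows. The promoter of Xrn1 and that of Xrn2 thus shared none of the 7 motifs, and Rnaseh2c held none of them. The G and C share was 55% in Xrn1, 62% in Xrn2 and 54% in Ssb, and the median of all promoters was 52.7%.

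Of the RNase H genes in whole-cell RNA, Rnaseh2c stood lower in High while Rnaseh1 and Rnaseh2b had intervals that included 0, and for Rnaseh2a this depended on the scaling. Rnaseh1 (ENSMUSG00000020630, GRCm38.p6 chromosome 12, 28649601 to 28659592) had 7.43 CPM (6.33 to 8.65) in High and 7.51 CPM (6.40 to 8.76) in Low. Its log2 ratio was -0.08 (-0.40 to 0.24), which corresponds to between 0.756 and 1.18 times Low after TMM scaling. For this enzyme, on which gapmers depend, whole-cell RNA thus showed no difference beyond counting error.

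Rnaseh2a, the catalytic subunit of RNase H2 (ENSMUSG00000052926, chromosome 8, 84956610 to 84969598), had 13.0 CPM (11.6 to 14.6) in High and 10.6 CPM (9.23 to 12.0) in Low. Its ratio was 0.24 (-0.02 to 0.50), the highest of the 8 genes in whole-cell RNA. The interval lay above 0 with library totals, at 0.05 to 0.56, and with the other 2 scalings run. The accessory subunit Rnaseh2b (ENSMUSG00000021932, chromosome 14, 62332068 to 62372996) had 8.20 CPM (7.05 to 9.48) and 8.39 CPM (7.22 to 9.70) in High and Low, a ratio of -0.10 (-0.40 to 0.21). Rnaseh2c (ENSMUSG00000024925, chromosome 19, 5601873 to 5602959) had 5.62 CPM (4.67 to 6.70) in High and 8.67 CPM (7.47 to 10.0) in Low. With 124 reads against 188, its ratio was -0.69 (-1.03 to -0.36), and 2.52% of the 13519 measured genes had a lower one. The reads of Rnaseh2a per read of Rnaseh2c came to 2.32 in High and 1.22 in Low. This is a log2 change of 0.93 (0.52 to 1.34) that no scaling can alter. It was 0.59 (0.15 to 1.03) for Rnaseh2b to Rnaseh2c and 0.34 (-0.05 to 0.73) for Rnaseh2a to Rnaseh2b. Within the complex Rnaseh2c thus stood apart in whole-cell RNA, while Rnaseh2a to Rnaseh2b had an interval that included 0. In the pulldown the change for Rnaseh2a to Rnaseh2c was 0.12 (-0.90 to 1.15).

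Both exonucleases were lower in High whole-cell RNA. Xrn1 (ENSMUSG00000032410, chromosome 9, 95954750 to 96057806) had 60.6 CPM (57.4 to 64.0) in High and 81.5 CPM (77.8 to 85.4) in Low, a ratio of -0.49 (-0.60 to -0.39). Xrn2 (ENSMUSG00000027433, chromosome 2, 147012755 to 147078000) had 83.6 CPM (79.9 to 87.5) in High and 119.3 CPM (114.7 to 124.0) in Low, a ratio of -0.58 (-0.66 to -0.49). The levels of the states did not overlap in their counting intervals for either gene. Of all measured genes, 5.85% had a ratio below that of Xrn1 and 3.98% a ratio below that of Xrn2. The read ratio of Xrn1 to Xrn2 was 0.725 in High and 0.684 in Low, a log2 change of 0.08 (-0.05 to 0.22).

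The binding proteins went in opposite directions in whole-cell RNA, and both by small amounts. Ssb (ENSMUSG00000068882, chromosome 2, 69861562 to 69871846) had 115.3 CPM (110.9 to 119.9) in High and 99.2 CPM (95.1 to 103.5) in Low, a ratio of 0.15 (0.07 to 0.24). Anxa2 (ENSMUSG00000032231, chromosome 9, 69453683 to 69491792) had 767.1 CPM (755.6 to 778.8) in High and 866.4 CPM (854.1 to 878.9) in Low, a ratio of -0.24 (-0.27 to -0.21). The narrow interval of Anxa2 reflects its depth of 16940 and 18795 reads.

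**Figure D1:**
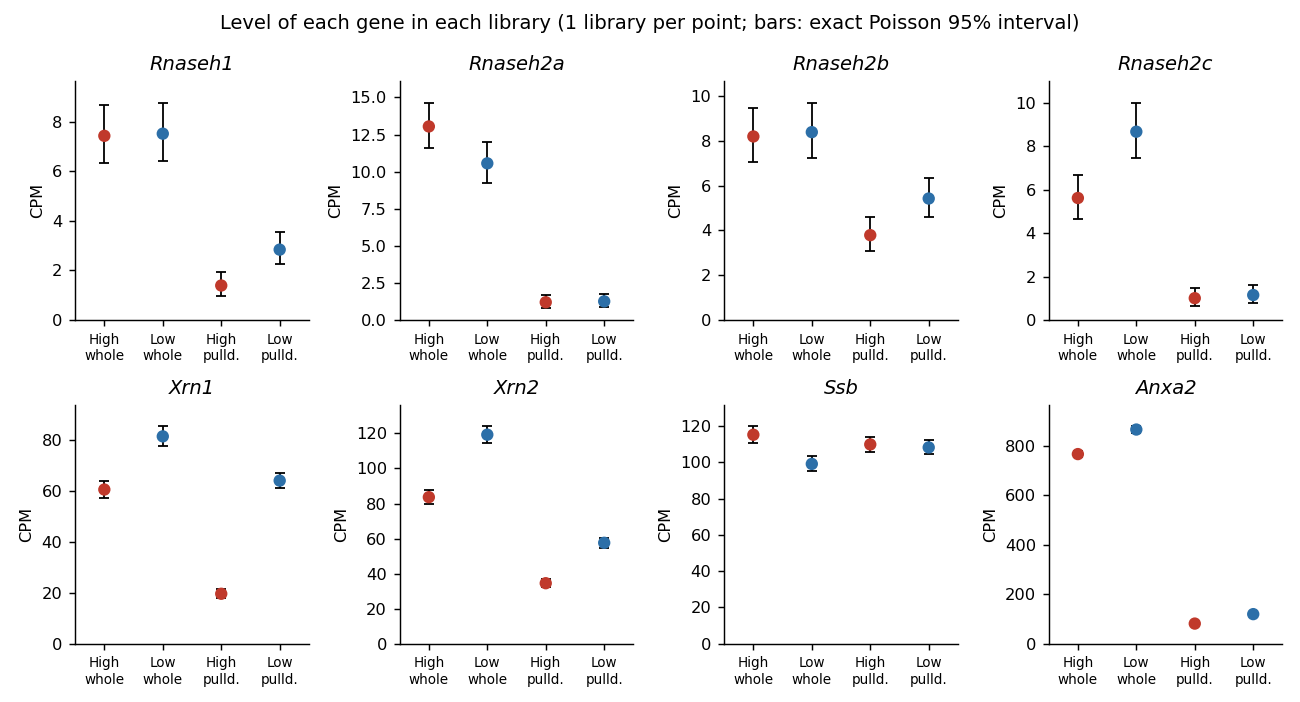
Level of each of the 8 genes in CPM (vertical axes start at 0 and differ between genes) in High (red) and Low (blue), in whole-cell RNA and in the fibrillarin pulldown. Points are single libraries and bars are exact Poisson 95% intervals; Xrn1 shows its lowest level, 19.6 CPM, in the High pulldown, and Ssb stays between 99.2 and 115.3 CPM in all 4 libraries.

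In all, 0 of the 8 genes passed 2-fold in whole-cell RNA, where 0.244% of all measured genes did so in either direction. No test between libraries was run, so no count at a p-value exists beside this. Intervals lay off 0 for 5 of the 8 genes, 1 higher (Ssb) and 4 lower (Rnaseh2c, Xrn1, Xrn2 and Anxa2), beside 18% of all genes higher and 20.5% lower. With each of the other 3 scalings Rnaseh2a joined them, which made 2 higher and 4 lower, beside 27.3% of all genes higher and 14% lower with library totals. This share rises with depth, since deeply read genes have narrow intervals. The median ratio of the 8 was -0.17, and that of all measured genes was -0.01.

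The fibrillarin pulldown differed between the states most for Xrn1. It had 508 reads or 19.6 CPM (18.0 to 21.4) in the High pulldown, against 1785 reads or 64.1 CPM (61.2 to 67.2) in the Low pulldown. Its ratio was -1.41 (-1.56 to -1.27), or 0.376 times Low after TMM scaling, and 3.36% of the 10736 genes measured in the pulldown had a lower ratio. Xrn1 was the 1 of 8 genes past 2-fold in this comparison, beside 2.9% of all genes that passed on the lower side and 6.32% in either direction. It passed under all 5 scalings tried, with ratios between -1.71 and -1.41.

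Xrn2 had 34.5 CPM (32.3 to 36.9) in the High pulldown and 57.6 CPM (54.8 to 60.5) in the Low pulldown. Its ratio was -0.44 (-0.56 to -0.32) by TMM, with 23.2% of genes lower, and -0.74 (-0.86 to -0.62) with library totals. The 2 exonucleases had like ratios in whole-cell RNA and unlike ones in the pulldown. Their read ratio, Xrn1 to Xrn2, was 0.569 in the High pulldown and 1.11 in the Low pulldown, a log2 change of -0.97 (-1.15 to -0.78).

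Of the RNase H genes in the pulldown, Rnaseh1 was the one whose interval lay off 0 by TMM, and with library totals Rnaseh2b was another. Rnaseh1 had 1.39 CPM (0.975 to 1.93) in High and 2.84 CPM (2.25 to 3.54) in Low, from 36 and 79 reads, and its ratio was -0.73 (-1.34 to -0.15). Rnaseh2a and Rnaseh2c were thinly read, and their intervals included 0. Rnaseh2a had 31 reads in High and 35 in Low, or 1.20 CPM (0.815 to 1.70) and 1.26 CPM (0.876 to 1.75), a ratio of 0.23 (-0.52 to 0.97). Rnaseh2c had 26 and 32 reads in High and Low, or 1.01 CPM (0.657 to 1.47) and 1.15 CPM (0.786 to 1.62), a ratio of 0.10 (-0.70 to 0.89). Both of these ratios turn negative with library totals, at -0.07 and -0.19. Rnaseh2b, with 98 and 151 reads, had 3.79 CPM (3.08 to 4.62) in High and 5.43 CPM (4.59 to 6.36) in Low, a ratio of -0.22 (-0.60 to 0.15) by TMM and -0.52 (-0.90 to -0.14) with library totals. A difference of the size seen for Rnaseh2c in whole-cell RNA lies within its pulldown interval, at the edge, and was not detectable at this depth.

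Ssb had 109.9 CPM (105.9 to 114.1) in the High pulldown and 108.3 CPM (104.5 to 112.2) in the Low pulldown. The intervals of these levels overlap, while the TMM ratio was 0.32 (0.24 to 0.39) and the ratio by library totals 0.02, since library totals move the median of all pulldown ratios by -0.29 against TMM. Anxa2 had 81.5 CPM (78.0 to 85.0) in High and 119.7 CPM (115.7 to 123.9) in Low. Its ratio was -0.26 (-0.34 to -0.18) by TMM and -0.555 (-0.634 to -0.476) with library totals. Relative to each other, Ssb gave 1.35 reads per Anxa2 read in the High pulldown and 0.905 in the Low pulldown, a log2 change of 0.58 (0.47 to 0.68), beside 0.39 (0.30 to 0.48) in whole-cell RNA.

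Intervals lay off 0 for 5 of the 8 genes in the pulldown, 1 higher (Ssb) and 4 lower (Rnaseh1, Xrn1, Xrn2 and Anxa2), beside 31.5% of all genes higher and 32.5% lower. With library totals 0 were higher and 5 lower, without Ssb and with Rnaseh2b, beside 16% and 53.3% of all genes. The median of the 8 was -0.24 and that of all genes -0.01. Of the 28 pairs of these genes, 1 pair changed its read ratio past 2-fold in the pulldown, and 0 of 28 did so in whole-cell RNA. It was Xrn1 to Ssb, with a log2 change of -1.73 (-1.89 to -1.57). That pair joins the lowest and the highest of the 8 pulldown ratios, so it repeats the result of Xrn1. The share over all pairs of genes was not computed, so these counts have no background.

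**Figure D2:**
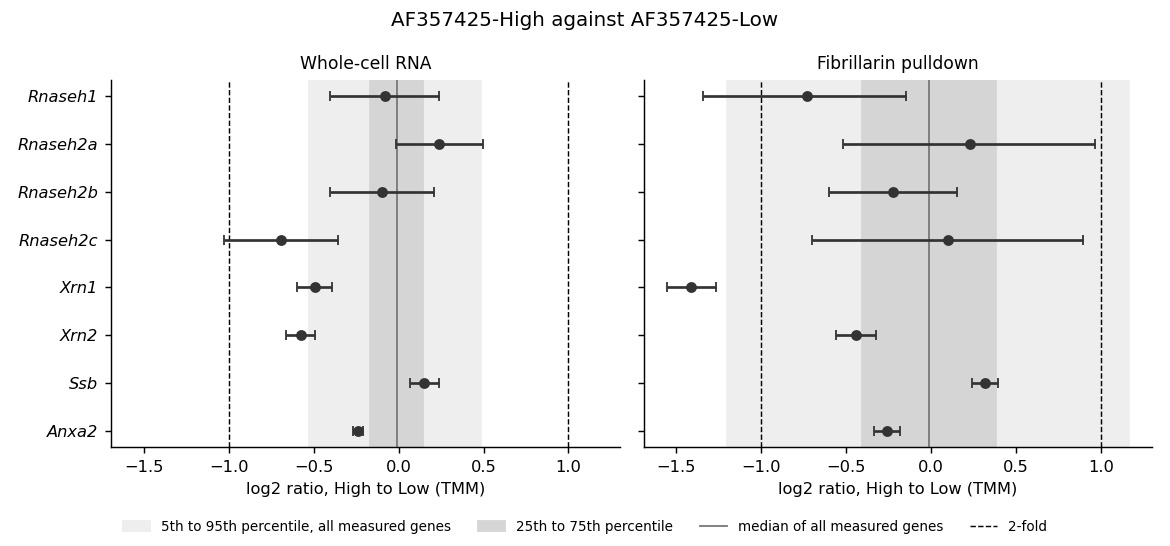
log2 ratio of High to Low for each gene (TMM scaling), in whole-cell RNA on the left and in the fibrillarin pulldown on the right, with 95% counting intervals. Grey bands give the 5th to 95th and the 25th to 75th percentile of all measured genes and dashed lines 2-fold; the interval of Xrn1 in the pulldown, -1.56 to -1.27, is the 1 wholly beyond a dashed line.

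The difference between the pulldown and whole-cell state ratios asks whether the state ratio differed between the kinds of RNA, and was set over 11356 genes with at least 10 reads in every library. For Xrn1 it was -0.92 (-1.10 to -0.74), with 8.55% of genes lower, so its pulldown ratio was below its whole-cell ratio by more than counting error. For Rnaseh1 it was -0.65 (-1.30 to -0.0023), an interval that ends next to 0. Xrn2 had 0.13 (-0.01 to 0.28), Anxa2 -0.02 (-0.10 to 0.06) and Ssb 0.16 (0.05 to 0.28). With library totals all of these were below 0 with intervals off 0, Xrn2 at -0.23 (-0.37 to -0.08), Anxa2 at -0.38 (-0.46 to -0.30) and Ssb at -0.20 (-0.31 to -0.08), so these values rest on the scaling. Leaving the 20 most abundant genes out of the totals gave intervals that included 0 for Xrn2 and Ssb, and -0.13 (-0.22 to -0.05) for Anxa2. Rnaseh2c had 0.79 (-0.02 to 1.61), Rnaseh2b -0.12 (-0.60 to 0.35), or -0.48 (-0.96 to -0.01) with library totals, and Rnaseh2a -0.01 (-0.76 to 0.73). None of the 8 passed 2-fold, beside 4.31% of all genes, though Xrn1 did with library totals at -1.28.

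Pulldown against whole-cell RNA of the same state compares the level of each transcript in the fibrillarin pulldown with its level in whole-cell RNA. The 4 libraries hold no control pulldown, so RNA bound to fibrillarin and RNA carried over cannot be told apart. The kinds of library differ in preparation and in ribosomal RNA depletion, and scaling moves the median of all genes by up to 1.84, so the 8 genes are placed by their rank among all genes, which scaling does not change. By library totals the median of all genes was -2.15 in High and -1.75 in Low. Ssb stood near the top in both states, with ratios of -0.07 (-0.15 to 0.01) in High and 0.13 (0.05 to 0.21) in Low, and 7.34% and 9.19% of genes above it. Rnaseh2b was next in High, with 22.7% of genes above it there and 22.2% in Low.

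The place of Xrn1 among all genes differed between the states. Its pulldown-to-whole-cell ratio was -1.63 (-1.78 to -1.48) in High, with 35.5% of genes above it, and -0.35 (-0.44 to -0.25) in Low, with 16.4% above it. Xrn2 had -1.28 (-1.39 to -1.16) in High and -1.05 (-1.14 to -0.96) in Low, with 26.6% and 32.5% of genes above it. In High, the pulldown-to-whole-cell ratio of Xrn2 was thus above that of Xrn1, and in Low below it.

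Rnaseh2a and Anxa2 lay in the lowest part of the range in both states. Rnaseh2a had -3.44 (-4.03 to -2.91) in High and -3.07 (-3.63 to -2.55) in Low, with 79.6% and 78.4% of genes above it. Anxa2 had -3.23 (-3.30 to -3.17) and -2.86 (-2.91 to -2.80), with 75.8% and 74.6% above it. Rnaseh2c had -2.48 (-3.15 to -1.86) in High and -2.91 (-3.50 to -2.37) in Low, with 58.9% and 75.8% of genes above it. Rnaseh1 had -2.42 (-2.98 to -1.89) in High and -1.40 (-1.81 to -1.01) in Low, with 57.1% and 41.4% above it. The places of Rnaseh2c and Rnaseh1 thus differed between the states by about as much as that of Xrn1, on far fewer reads. By library totals 6 of 8 genes were past 2-fold on the lower side in High, beside 74.1% of all genes, and 4 of 8 in Low, beside 62.4%. These shares are near the background, and with TMM 1 gene (Ssb) was past 2-fold on the higher side and 2 (Rnaseh2a and Anxa2) on the lower side in High, beside 13.2% and 22.6% of all genes.

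**Figure D3:**
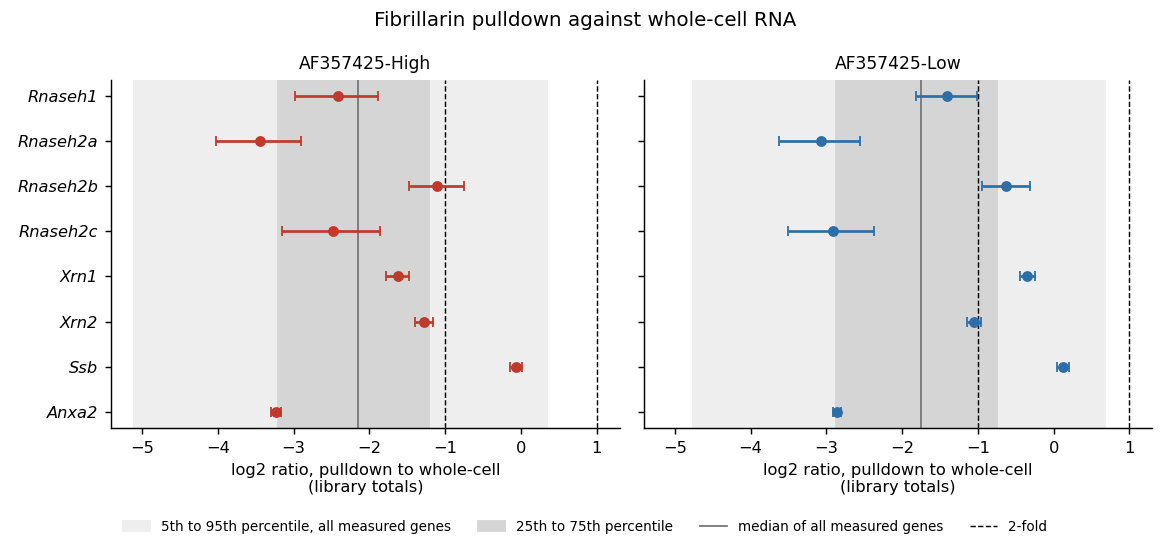
log2 ratio of the fibrillarin pulldown to whole-cell RNA for each gene by library totals, in High on the left and Low on the right, with 95% counting intervals. Grey bands and lines show all measured genes as percentiles and median, and dashed lines 2-fold; Ssb lies at the right in both panels, and Xrn1 lies at -1.63 in High and -0.35 in Low.

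Among themselves the 8 genes differed in pattern over the 4 libraries, measured as the Euclidean distance between log2(CPM + 0.1) values centred on each gene. The closest pairs were Rnaseh2b with Xrn2 (0.484) and Rnaseh2a with Anxa2 (0.497), and the farthest was Rnaseh2a with Ssb (3.19). Xrn1 and Xrn2 stood at 0.708, and within RNase H2 the distances were 0.866 for Rnaseh2a with Rnaseh2c, 1.80 for Rnaseh2b with Rnaseh2c and 2.33 for Rnaseh2a with Rnaseh2b. Among 6132 genes of at least 5 CPM in every library, the nearest gene to Xrn1 was Trnt1 (distance 0.141), with 6.03 and 22.3 CPM in the High and Low pulldowns and 21.2 and 26.7 CPM in High and Low whole-cell RNA. The nearest to Xrn2 was Efemp1 (0.109), to Anxa2 Smim14 (0.0918), to Rnaseh1 Pkd2 (0.0452), to Rnaseh2a Mtch2 (0.0800), to Rnaseh2b Trmt5 (0.0060) and to Rnaseh2c Ndrg4 (0.155). With 4 libraries these distances describe the libraries and carry no replicate check.

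Overlaps with other genes bear on a few of the values, since no source used here gives the strand setting of the counting. Xrn1 overlaps the long noncoding RNA gene Gm16794 over 8498 bases at its start, a gene with 26 and 14 reads in the High and Low pulldowns. Ssb overlaps Mettl5, a ribosomal RNA methyltransferase gene, over 652 bases, and Mettl5 had 42 and 121 reads in the pulldowns of High and Low, the direction opposite to Ssb by TMM. Rnaseh2b overlaps Gucy1b2 over 62 bases, which had 0 reads in all 4 libraries, and Anxa2 holds the microRNA gene Mir3109. A pseudogene of Anxa2, Gm41080, is annotated as well, so that reads of Anxa2 could be shared with it. Rnaseh1, Rnaseh2a, Rnaseh2c and Xrn2 overlap no other RefSeq gene.

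Other genes of the same pathways were taken from 9 lists. In the RNA exosome, which degrades RNA from the 3′ end, and its nuclear cofactors, 2 of 21 measured genes were past 2-fold lower in the High pulldown and 0 higher, the cap subunit Exosc3 at -1.60 (-2.10 to -1.12) and the cofactor Zfc3h1 at -1.21 (-1.32 to -1.10), beside 2.9% of all genes on the lower side. The exosome list had medians of -0.04 (pulldown) and -0.03 (whole-cell RNA), and none of its 23 genes measured in whole-cell RNA passed, beside 0.244% of all genes, with the cytoplasmic catalytic subunit Dis3l lowest at -1.01 (-1.21 to -0.81). In the decapping and cytoplasmic decay list, which feeds RNA to Xrn1, 0 of 21 pulldown genes passed, with a median of -0.20, and 0 of 25 whole-cell genes, with a median of -0.06. Its lowest pulldown gene was the deadenylase Cnot7 at -0.93 (-1.25 to -0.62).

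The other RNA exonucleases had 2 of 13 genes past 2-fold higher in the High pulldown and 0 lower, the interferon-inducible Isg20 at 1.87 (1.37 to 2.39) and the mitochondrial Pnpt1 at 1.21 (1.07 to 1.36), with a median of 0.13, beside 3.43% of all genes on the higher side. Of this list 0 of 14 passed in whole-cell RNA, median 0.10. The list of RNA-DNA hybrid and Aicardi-Goutières genes had 3 of 12 past 2-fold higher and 0 lower in the pulldown, with a median of -0.06. They were the RNA sensor Ifih1 at 2.18 (2.04 to 2.32), the RNA-editing enzyme Adar at 1.86 (1.65 to 2.07) and the deoxynucleotide hydrolase Samhd1 at 1.34 (1.23 to 1.46), while the RNA helicase Dhx9 had -0.95 (-1.03 to -0.87). Rnaseh2a, Rnaseh2b and Rnaseh2c, whose human counterparts belong to the same disease group, did not pass. Rnaseh2a and Rnaseh2c had only 66 and 58 reads over the 2 pulldowns, which limits what could pass. In whole-cell RNA 0 of 13 genes of that list passed, with a median of -0.06. Adar and Ifih1 overlap other annotated genes.

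The partners of Xrn2 in termination held 0 of 16 genes past 2-fold in either kind of RNA, with medians of -0.18 (pulldown) and 0.05 (whole-cell RNA). The Xrn2 regulator Cdkn2aip had 0.50 (0.26 to 0.75) in whole-cell RNA, the highest of that list, where Xrn2 itself had -0.58. In the pulldown Cdkn2aip had -0.21 (-0.47 to 0.06). The pulldown extremes of that list were Ttf2 at 1.07 (0.50 to 1.67) and Clp1 at -1.84 (-2.93 to -0.88). Clp1 had 11 and 52 reads in the High and Low pulldowns. For the change between the kinds of RNA 1 of 16 passed, Pcf11 at -1.28 (-1.42 to -1.13), beside 4.31% of all genes. The La-related proteins held 0 of 5 past 2-fold in the pulldown (median -0.00086) and 0 of 6 in whole-cell RNA (median 0.13). Other oligonucleotide binders had 1 of 20 past 2-fold in the pulldown, the paraspeckle protein Pspc1 at -1.30 (-1.49 to -1.10), a share near the 6.32% of all genes in either direction. In whole-cell RNA 0 of 20 passed, and there Pspc1 was also lowest at -0.54 (-0.69 to -0.39). Their medians were 0.05 (pulldown) and -0.05 (whole-cell RNA). The uptake and trafficking genes had 0 of 14 past 2-fold in each kind of RNA, with medians of 0.43 (pulldown) and -0.09 (whole-cell RNA). The early endosome GTPase Rab5c was highest in the pulldown at 0.97 (0.78 to 1.16).

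**Figure D4:**
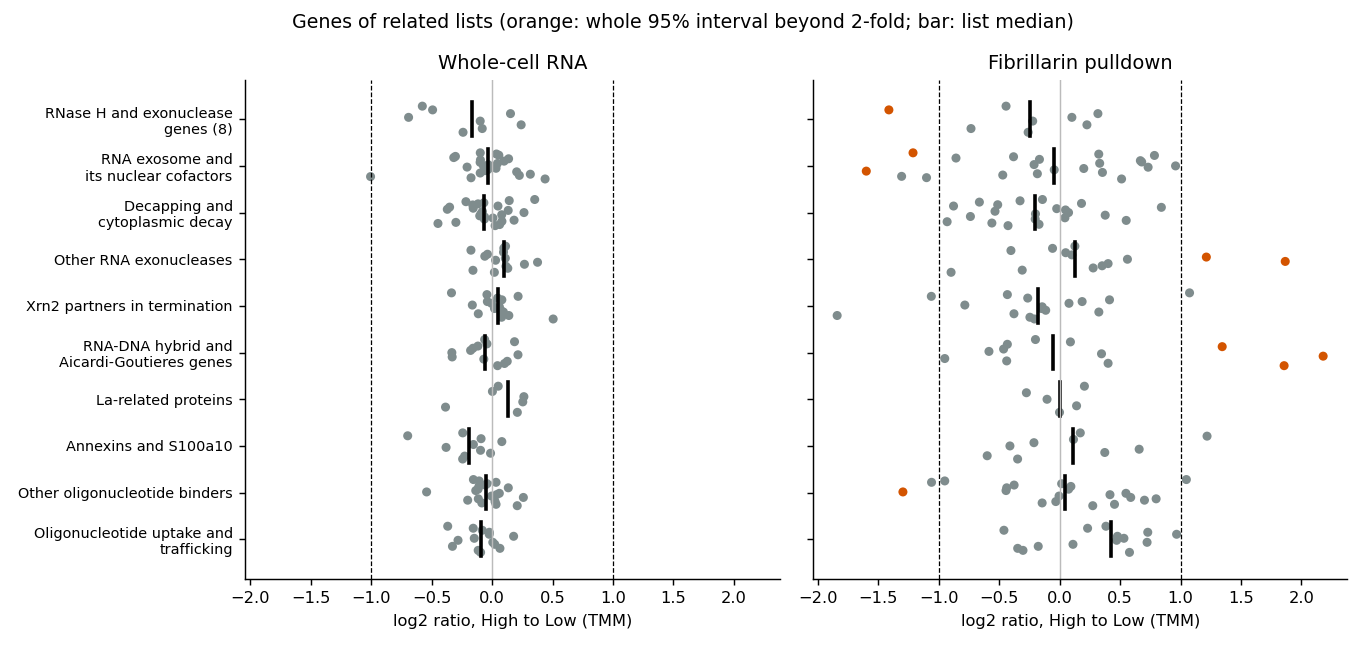
log2 ratio of High to Low (TMM scaling) for the genes of each list, whole-cell RNA on the left and fibrillarin pulldown on the right; each point is a gene, black bars are list medians, dashed lines are 2-fold and orange points are past 2-fold with their whole interval. Whole-cell RNA has no orange point, and in the pulldown the orange points are Xrn1, Exosc3, Zfc3h1 and Pspc1 on the left and Isg20, Pnpt1, Ifih1, Adar and Samhd1 on the right.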

How the data were processed

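RNA was measured in 4 libraries, 1 per group. The authors deposited counts of fragments per Ensembl gene. The submitters' processing notes name cutadapt 2.4 for trimming, STAR 2.6.0c and the build GRCm38 for alignment, HTSeq 0.9.1 for counting, and StringTie 1.3.4. Neither the annotation nor the strand setting is stated there. HTSeq summary lines, between 43.8% and 50.0% of fragments, were left out of library sizes. Symbols matched 55450 of 55536 IDs; positions, overlaps and promoters are from RefSeq (GRCm38.p6).

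State ratios were scaled with TMM in edgeR 4.0.16 under R 4.3.3. Its factors were 1.02 (High) and 0.978 (Low) in whole-cell RNA, and 0.903 (High) and 1.11 (Low) in the pulldown. Pulldown against whole-cell ratios used library totals. A gene was measured where its mean over the pair reached 1 CPM; all 8 genes passed. Intervals are exact (Clopper-Pearson) for a pair, normal on the log scale for changes over 4 counts, and exact Poisson for levels. Those for pairs and for changes were tested on simulated Poisson counts, which do not hold the dependence between real reads. Levels per exon length were planned but not made, since exon lengths were not given. The alternatives were library totals, DESeq2 1.42.0 size factors, totals without the 20 most abundant or the mitochondrial genes, other minimum levels and other call rules. From each list the genes with the highest and lowest ratio (at least 50 reads in the pair) and those past 2-fold were candidates for naming. The genes and lists were chosen with earlier results of these data known; ratios between pairs of the 8 genes were added after their values were seen. The gene nearest in pattern to Ssb is not reported here.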

Additional observations from a re-analysis of the deposited data

How the results depend on the processing

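No library could be left out, and no paired analysis was possible because each group has 1 library. In the state comparisons of High against Low, the count of the 8 genes past 2-fold was 1 (Xrn1) in the pulldown and 0 in whole-cell RNA under every scaling, minimum level and call rule run. For the change between the kinds of RNA it was 0, but 1 (Xrn1) with library totals and 1 with whole intervals beyond 1.5-fold. For pulldown against whole-cell RNA in High it was 6, but 3 with TMM, 3 with totals without mitochondrial genes and 3 with totals without the 20 most abundant genes. Single ratios past 2-fold that changed sign were Xrn1 in High with TMM (0.22), Xrn2 in High with TMM (0.57), without mitochondrial genes (0.24) and without the 20 most abundant genes (0.34), and Rnaseh1 in Low with TMM (0.022). Ratios not past 2-fold that turned positive under each of these scalings were Rnaseh2b in both states, Xrn1 and Xrn2 in Low, and Ssb in High. A scaling shifts every gene of a comparison by the same amount, for TMM by 1.84 in High and 1.43 in Low. Why the scalings differ was not tested.

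Counts over all genes moved as follows. In whole-cell RNA 33 genes were past 2-fold, against 64 with no minimum level, 15 at 5 CPM, 136 at 1.5-fold and 187 by point value. In the pulldown 679 were, against 1688, 302, 1671 and 1537 in the same order, and library totals gave 238 higher and 608 lower where TMM gave 368 and 311. For the change, 490 were, against 1469 at 1.5-fold and 1686 by point value. For pulldown against whole-cell RNA, 9767 in High became 4566 with TMM, 5051 without mitochondrial genes and 4855 without the 20 most abundant, and 8295 in Low became 5096, 5129 and 5122. Depth limits the pulldown values of Rnaseh1, Rnaseh2a and Rnaseh2c, each with under 80 reads per library. TMM without mitochondrial genes in the pulldown was added after seeing the data.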

Other observations

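The other annexins stood on both sides of Anxa2. The annexins and S100a10 had 9 of 10 measured genes below 0 in whole-cell RNA, where 48.2% of all genes were above 0. Their median log2 ratio was -0.19 for High against Low, and 0 of 10 were past 2-fold, beside 0.244% of all genes. Anxa5, a phosphatidylserine-binding annexin, had -0.38 (95% interval -0.42 to -0.34), Anxa1 -0.24 (-0.29 to -0.20) and S100a10, the partner of annexin A2, -0.24 (-0.32 to -0.17), beside -0.24 for Anxa2. In the pulldown 5 of 9 were above 0, beside 49.2% of all genes, with a median of 0.11. Past 2-fold there were 0 of 9, beside 6.32% of all genes. Anxa1 had -0.35 (-0.43 to -0.26) and Anxa5 -0.41 (-0.51 to -0.31) there, while S100a10 had 0.17 (-0.03 to 0.37) and Anxa8 1.22 (0.99 to 1.45). Anxa8 overlaps another annotated gene. For Anxa8 the change between the kinds of RNA was 1.31 (1.06 to 1.56), past 2-fold, as for 4.31% of all genes. It was -0.02 for Anxa2. No test between groups was possible with 1 library each.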
